A study of Apocynum venetum with 18 samples.

Results

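Leaves of Apocynum venetum sampled at 24 h in salt were compared with leaves sampled at 0 h. The comparison used 6 of the 18 RNA-seq libraries of the series, 3 at 24 h and 3 at 0 h, chosen by the time in their labels. It covered all 45222 features that passed a filter on low counts, of 53545 in the tables. Both groups were whole leaf tissue of seedlings labelled wild P. apocinae, and the labels give both the same nutrient solution with 300 mmol/L NaCl. They differ in the labelled time alone: 24 h for the first group and 0 h for the second. The design text names control plants in salt-free solution, but no library is labelled as one, and whether the 0 h plants had met salt is not stated. Salt, handling and plant age between the 2 samplings cannot be told apart. The labels do not tie libraries to plants, so a p-value here measures the spread among libraries, which may be technical.

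Apocynum venetum is a perennial fibre and tea plant of saline and dry ground. In leaves of land plants, salt in the root medium first limits water uptake and later loads cells with sodium and chloride. Known leaf responses include abscisic acid signalling, transport of sodium into vacuoles, synthesis of compatible solutes and reduced photosynthesis and growth. Which of these processes the features below belong to is not stated here, because the deposited annotation columns were not used as names and no reference of this plant was given. A feature is 1 assembled transcript, and several features can belong to 1 gene. In whole leaves, fewer cells of a type and less RNA per cell cannot be told apart.

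The 6 libraries held 17933939 to 23297547 estimated counts. A level is given as CPM, a count scaled to a common library total after adjusting totals by TMM, or per feature length as FPKM. A library of each group stood nearer to the other group than its replicates did. Across features, the Spearman correlation of log2 CPM was 0.92 and 0.904 between 24 h replicate 3 and the other 24 h libraries, which correlated at 0.925 with each other. With the 0 h libraries, 24 h replicate 3 correlated at 0.792, 0.844 and 0.796, against 0.739 to 0.811 for the other 24 h libraries. The library labelled 0 h replicate 2 correlated at 0.893 and 0.88 with its own group, whose other libraries correlated at 0.94, and at 0.811, 0.789 and 0.844 with the 24 h libraries. Both libraries were kept, and the main counts are also given without them.

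After 24 h in salt 27.2% of the features tested had changed. Features higher at 24 h numbered 6692 and features lower numbered 5610, which is 14.8% and 12.4% of those tested. A feature was called when edgeR's quasi-likelihood test gave a Benjamini-Hochberg adjusted p under 0.05 and a log2 change of at least 1 in size. Without 24 h replicate 3 and 0 h replicate 2, 7265 features rose (15.5% of those tested) and 6015 fell (12.8%), which is 28.3% together. The test also put 2558 features under the p threshold with a smaller change, and 10298 features had a change of at least 1 that did not pass.

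**Figure D1:**
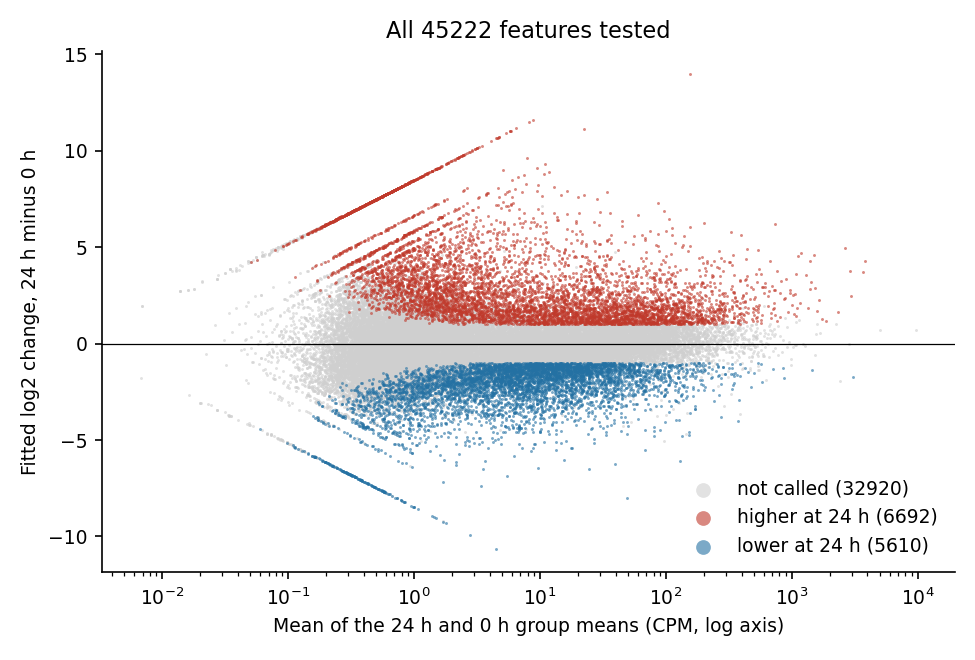
Each point is 1 of the 45222 features tested. The x axis is the mean of the 24 h and 0 h group means in CPM on a log axis, and the y axis is the fitted log2 change, 24 h minus 0 h. The diagonal lines at low levels hold features with few or no counts in one group. Above 100 CPM red points (higher at 24 h) outnumber blue ones (lower at 24 h).

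Rises reached larger folds than falls. Rises had a median log2 change of 2.46 and falls one of -2.01. These medians were 2.45 and -2.01 with groups that had no counts set to a floor of 3 counts over the group. Under 1 CPM the medians were 4.75 for 1498 rises and -3.44 for 812 falls. Between 1 and 10 CPM they were 2.56 and -2.02, between 10 and 100 CPM 1.69 and -1.66. Between 100 and 1000 CPM they were 1.76 and -1.62. At 1000 CPM or more they were 2.58 for 27 rises and -1.54 for 2 falls. Of the rises, 2611 lay between 1 and 2 on the log2 scale, 1449 between 2 and 3, 1470 between 3 and 5, and 1162 at 5 or more. Of the falls, 2771 lay between 1 and 2, 1634 between 2 and 3, 954 between 3 and 5, and 251 at 5 or more. Changes of 5 or more thus made up 17.4% of rises and 4.47% of falls. Fitted changes this large often rest on few counts: 680 rises had no count at 0 h and 171 falls had none at 24 h. The 3 libraries of one group lay entirely above or below those of the other for 6457 rises and 5156 falls. Over all features tested that was so for 44.8%.

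The balance of rises and falls depended on how libraries were scaled. With TMM 54.4% of calls were rises. With library totals alone 4914 features rose (10.9% of those tested) and 8138 fell (18.0%), 28.9% together. Rises were then 37.6% of calls, and the log2 changes of all features moved by -0.34 in the median. With upper-quartile scaling they moved by 0.12. That scaling gave 7413 rises (16.4%) and 4796 falls (10.6%), 27.0% together. Values that TMM had not scaled, tested with limma as log2(FPKM + 1), gave 4588 rises (11.9%) and 8116 falls (21.0%), 32.8% of the 38704 features in that test. Of the 6692 rises, 4914 were also called with library totals alone, as were all 5610 falls, and no feature changed direction. TMM factors were 0.866, 0.792 and 1.04 at 24 h, against 1.16, 1.14 and 1.11 at 0 h.

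Changed features held a large share of the estimated counts. Features that rose held 39.7%, 42.3% and 37.8% of counts in the 24 h libraries, against 10.4%, 15.7% and 11.6% at 0 h. Features that fell held 4.55%, 3.75% and 5.24% at 24 h, against 22.1%, 17.0% and 19.0% at 0 h. The groups did not overlap, which follows from how the features were chosen. The 0 h library with the largest share in rises and the smallest in falls was replicate 2. The features without a call held 55.5% ± 1.55 of counts at 24 h and 68.0% ± 1.18 at 0 h (SD, n = 3 each).

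In libraries of the times not compared, which entered the filter, scaling and spread of the fit but not the contrast, the mean share of these features at 2 h, 6 h and 12 h lay between the shares of 0 h and 24 h. Rises held 18.7% ± 1.92 of counts after 2 h, 21.4% ± 2.61 after 6 h, 30.1% ± 1.30 after 12 h and 43.0% ± 3.97 after 48 h (SD, n = 3 each). Falls held 14.3% ± 0.584 after 2 h, 13.4% ± 1.68 after 6 h, 8.42% ± 0.525 after 12 h and 3.90% ± 0.850 after 48 h. The median level of the rises averaged 1.38 CPM in 0 h libraries, 2.64 CPM after 2 h, 2.95 CPM after 6 h, 4.80 CPM after 12 h, 7.74 CPM after 24 h and 7.45 CPM after 48 h. That of the falls averaged 10.0 CPM in 0 h libraries, 7.20 CPM after 2 h, 7.11 CPM after 6 h, 4.48 CPM after 12 h, 2.59 CPM after 24 h and 2.44 CPM after 48 h. Between 24 h and 48 h both shares and both medians overlapped. The features were chosen by their difference between 24 h and 0 h. Values in between at other times can follow from that choice, so they are no independent evidence of a graded course.

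**Figure D2:**
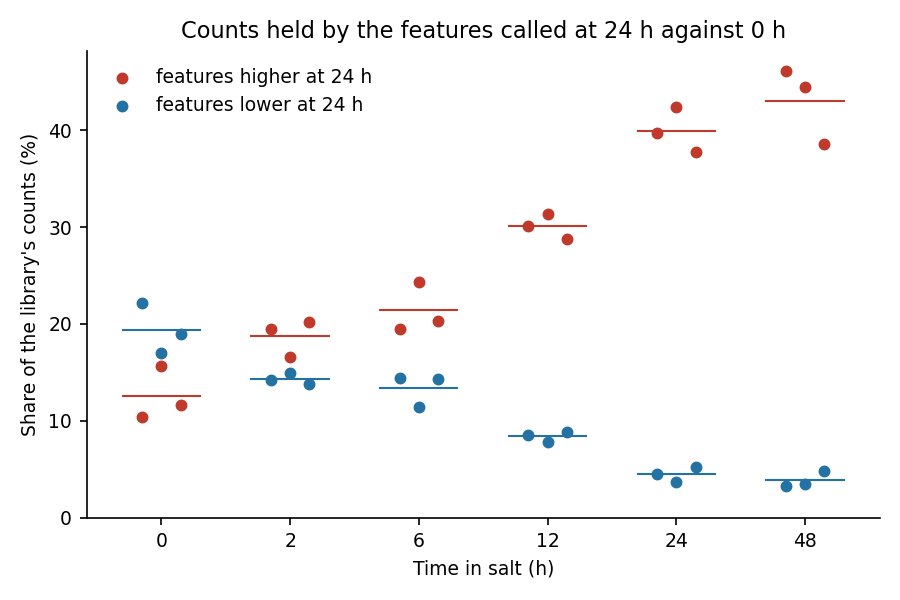
Each point is 1 library, with time in salt in hours on the x axis and the share of the library's counts in percent on the y axis. Lines are means of 3 libraries. Red marks the 6692 features higher at 24 h than at 0 h and blue the 5610 features lower at 24 h. The red share averaged 40.0% at 24 h and 12.6% at 0 h.

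Estimated counts were concentrated in fewer features in the 24 h libraries. Each library's top 100 features held 16.8%, 17.5% and 15.3% of counts at 24 h, against 11.8%, 11.8% and 12.8% at 0 h. The 10 most abundant held 5.22% ± 0.568 at 24 h and 3.76% ± 0.0733 at 0 h (SD, n = 3 each). A share of 50% of counts was reached with 1313, 1220 and 1565 features at 24 h, against 2112, 1998 and 1932 at 0 h. The groups did not overlap in any of these 3 measures, for each of which p was 0.1 by an exact permutation test (two-sided), and 3 libraries against 3 allow no smaller value.

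The set of most abundant features also differed between the times. Of the 100 features highest in mean CPM at 24 h, 35 were also among the 100 highest at 0 h. Of the 24 h set, 70 had risen, 1 had fallen and 29 were not called. Of the 0 h set, 9 had risen, 20 had fallen and 71 were not called. Ranked by mean FPKM, which is per length, the sets shared 42 features, and the 24 h set held 61 rises and 1 fall. These sets were chosen from the values compared.

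In each class of level per length rises outnumbered falls, though not under every scaling and not in every class of count. Of 797 features with a mean of 100 to 1000 FPKM, 28.6% rose and 16.3% fell. Of 19 features at 1000 FPKM or more, 8 rose and 1 fell. Between 10 and 100 FPKM 17.4% rose and 16.0% fell, and between 1 and 10 FPKM 14.0% rose and 12.7% fell. Under 1 FPKM 736 features rose and 281 fell, and rises were 72.4% of calls.

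With library totals alone 6 features rose and 1 fell at 1000 FPKM or more, and under 1 FPKM 631 rose and 422 fell. The direction flipped between 100 and 1000 FPKM, with 160 rises and 171 falls, as it did between 10 and 100 FPKM, with 1098 rises and 2350 falls, and between 1 and 10 FPKM, with 3019 and 5194. Grouped by count instead, and with TMM, 1498 features under 1 CPM rose and 812 fell. Falls were slightly more frequent between 1 and 10 CPM, with 2531 rises and 2612 falls. The same held between 10 and 100 CPM, with 1985 rises and 1998 falls. Between 100 and 1000 CPM 651 of 2051 features rose and 186 fell, and with library totals alone 434 rose and 294 fell. Grouped by their level in the 12 libraries outside the comparison, 693 features of that CPM class rose and 141 fell. Log2 changes of features with few counts were less precise. The median standard error of a log2 change was 1.07 for features under 1 CPM, 0.56 between 1 and 10 CPM and 0.26 between 10 and 100 CPM. It was 0.29 between 100 and 1000 CPM and 0.47 for the 45 features at 1000 CPM or more. The part of depth in this was not tested.

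**Figure D3:**
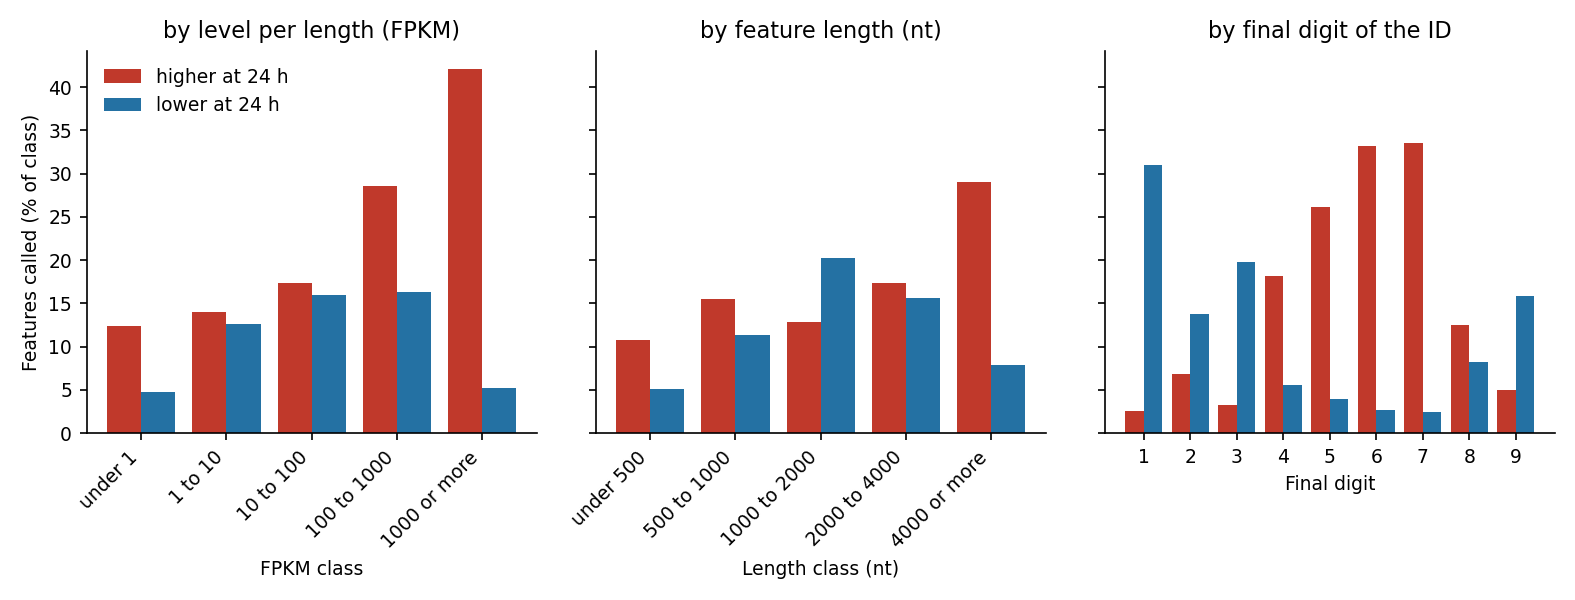
Bars give the percent of the tested features in a class that were called higher (red) or lower (blue) at 24 h, by mean FPKM of both groups, by feature length in nucleotides and by the final digit of the feature ID. Rises reach 42.1% of the class at 1000 FPKM or more and 29.1% of the class of 4000 nucleotides or more. Falls reach 31.0% of features with final digit 1.

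Among called features, rises outnumbered falls for features of 4000 nucleotides or more, and falls outnumbered rises for those of 1000 to 2000 nucleotides. Feature length, worked out from count and FPKM, ran from 301 to 15981 nucleotides. Of 2592 tested features with 4000 nucleotides or more, 754 rose (29.1%) and 204 fell (7.87%). Of 10257 features with 1000 to 2000 nucleotides, 1316 rose (12.8%) and 2079 fell (20.3%). Between 2000 and 4000 nucleotides 1716 rose and 1541 fell, between 500 and 1000 nucleotides 1571 rose and 1153 fell, and under 500 nucleotides 1335 rose and 633 fell. The falls of short features moved with single libraries. Under 500 nucleotides 366 fell when 24 h replicate 2 was left out, 411 when it was 24 h replicate 1 and 395 when it was 0 h replicate 1, and between 500 and 1000 nucleotides 755 fell without 24 h replicate 2. With a minimum of 10 CPM in 3 libraries, 195 features of 500 to 1000 nucleotides rose and 331 fell.

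Both main directions held with library totals alone, where 564 features of 4000 nucleotides or more rose and 328 fell, and 933 of 1000 to 2000 nucleotides rose and 2935 fell. Under 500 nucleotides 1067 rose and 923 fell with that scaling. It turned the direction between 2000 and 4000 nucleotides, to 1140 rises and 2308 falls, and between 500 and 1000 nucleotides, to 1210 rises and 1644 falls. Without 24 h replicate 3 and 0 h replicate 2, 893 of the longest features rose and 256 fell, and 1489 of those with 1000 to 2000 nucleotides rose and 2057 fell.

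Among features with similar counts, the longest had more rises than falls between 1 and 1000 CPM, and the other length classes differed with the count. Between 10 and 100 CPM, 470 features of 4000 nucleotides or more rose and 167 fell. In the same range 975 features of 2000 to 4000 nucleotides rose and 832 fell, 435 of 1000 to 2000 nucleotides rose and 778 fell, 89 of 500 to 1000 nucleotides rose and 208 fell, and 16 of under 500 nucleotides rose and 13 fell. Between 1 and 10 CPM, 91 of the longest rose and 27 fell, 396 of 2000 to 4000 nucleotides rose and 628 fell, 684 of 1000 to 2000 nucleotides rose and 1151 fell, 904 of 500 to 1000 nucleotides rose and 600 fell, and 456 of under 500 nucleotides rose and 206 fell. Between 100 and 1000 CPM, 185 of the longest rose and 10 fell, and 116 of 1000 to 2000 nucleotides rose and 91 fell. With library totals alone the longest between 10 and 100 CPM still had more rises (361) than falls (266), and those of 2000 to 4000 nucleotides flipped to 624 rises and 1295 falls. The mean feature length weighted by counts was 2882, 2941 and 2925 nucleotides in the 24 h libraries, against 2603, 2727 and 2658 nucleotides at 0 h. These groups did not overlap either (p = 0.1, exact permutation test). Whether the deposited counts had been adjusted for feature length is not stated, and such an adjustment would enter each CPM and these length classes. RNA quality was not given in the sources used here, and its part in the length pattern was not tested.

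More features were switched on than off by 24 h. A feature was counted as switched on when the 0 h libraries held at most 3 counts in sum and each 24 h library stood at 1 CPM or more, and as switched off in the reverse case. By this rule 301 of the 53545 features in the tables were switched on and 17 were switched off. With library totals alone the numbers were 267 and 25. Of the 301 switched on, 151 had no count at all at 0 h, and of the 17 switched off, 7 had none at 24 h.

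With a library left out the rule asks less, so these numbers can only stay or rise. Without 0 h replicate 2, 540 features were switched on and 63 off. Without 24 h replicate 3, 436 were switched on and 149 off. Without both of these libraries, 745 were switched on and 297 off. Without 0 h replicate 1 the numbers were 367 and 31, without 0 h replicate 3 they were 391 and 39, without 24 h replicate 1 they were 341 and 44, and without 24 h replicate 2 they were 365 and 30.

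Most features that were switched on reached modest levels. Their mean level at 24 h ran from 1.12 to 314 CPM with a median of 2.65 CPM. It was under 2 CPM for 101 of them, 2 to 5 CPM for 142, 5 to 10 CPM for 35 and 10 CPM or more for 23. In every 24 h library 9 features stood at 10 CPM or more. Their median length was 649 nucleotides, against 759 nucleotides for all features in the tables, and 29.2% had 1000 nucleotides or more. The 17 features switched off stood at 1.36 to 5.56 CPM at 0 h, and 0 of them had 10 CPM or more in every 0 h library. In sum the features switched on held 1717, 1529 and 1309 CPM in the 24 h libraries, against 2.74, 8.18 and 3.57 CPM at 0 h. The highest 0 h library was again replicate 2.

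Levels of the features switched on or off in libraries of the other times are given next. The rule fixed their state at 0 h and 24 h. Values in between, and fewer features at 1 CPM, can follow from it at other times. Summed levels of the features switched on were 137 ± 85.8 CPM after 2 h, 164 ± 101 CPM after 6 h, 354 ± 79.2 CPM after 12 h and 1603 ± 460 CPM after 48 h (SD, n = 3 each). At most 3 counts over the group were still found for 32 of the 301 after 2 h, for 18 after 6 h and for 3 after 12 h. A level of 1 CPM in every library was reached by 0 features after 2 h, 6 after 6 h, 53 after 12 h and 131 after 48 h. The features switched off held 15.0 ± 2.67 CPM after 2 h, 13.2 ± 3.65 CPM after 6 h, 7.49 ± 1.70 CPM after 12 h and 4.55 ± 2.97 CPM after 48 h. In the 24 h libraries they held 0.162, 0.852 and 0.373 CPM, against 52.9, 36.9 and 39.0 CPM at 0 h, as the rule requires.

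**Figure D4:**
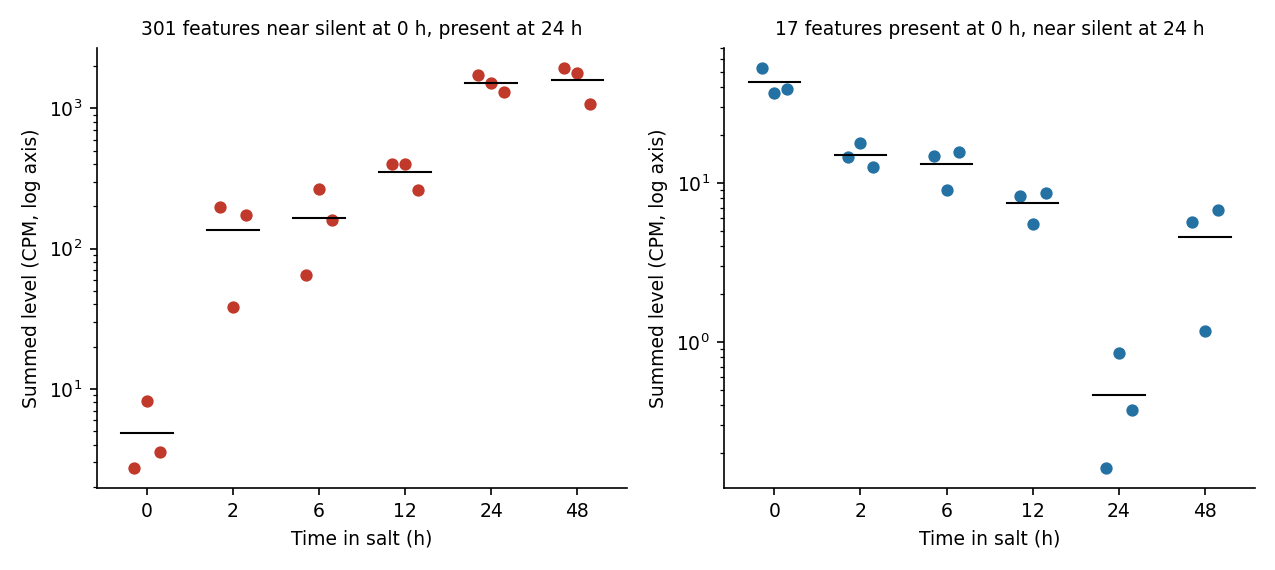
Each point is the summed level of the listed features in 1 library, in CPM on a log axis, with time in salt in hours on the x axis and the mean of 3 libraries as a line. The 301 features near silent at 0 h sum to 1519 CPM on average at 24 h. The 17 features near silent at 24 h sum to 43.0 CPM on average at 0 h.

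The number of features detected overlapped between the times. At least 1 count was found for 47552, 45897 and 48831 features in the 24 h libraries and for 47793, 46108 and 48377 features at 0 h, with an exact two-sided permutation p = 1. With at least 1 CPM the numbers were 28341, 26783 and 31399 at 24 h, and 30368, 30854 and 31025 at 0 h, again with overlap (exact two-sided permutation p = 0.4). Of all features, 37416 (69.9%) had a count in each of the 6 libraries. In all 24 h libraries and no 0 h library 883 had a count, and in all 0 h libraries and no 24 h library 391 had one. In none of the 6 libraries did 1374 features have a count.

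The 4 features described next carry assembly IDs and no gene name. Of 9 called features with at most 3 counts at 0 h and at least 10 CPM in every 24 h library, TRINITY_DN16846_c1_g1_i10_7, of 4966 nucleotides, was the most abundant at 24 h. It stood at 259, 365 and 319 CPM at 24 h, while the 0 h libraries held 0, 0 and 1 count. No 24 h library was near any 0 h library. The 24 h level was 21838 times that of 0 h. From the exact Poisson error of the counts, which covers counting error only, this ratio could be 3919 to 862540 (95%). The fit put its log2 change at 13.94 (SE 1.18, adjusted p = 5.2e-06, edgeR), a value that depends on the fit's own prior count. With limma on log2(FPKM + 1) the change was 6.01. The feature stood at 4.19 ± 1.97 CPM after 12 h and 482 ± 136 CPM after 48 h (SD, n = 3 each).

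Another 2506 called rises had at least 1 CPM in every 0 h library, at least 10 CPM in every 24 h library and no overlap. Among them TRINITY_DN14405_c0_g1_i1_7, of 1795 nucleotides, had the largest log2 change. It stood at 431, 446 and 304 CPM at 24 h, against 5.43, 5.93 and 4.33 CPM at 0 h. Every 24 h library was far above every 0 h library, and replicate 3 was the lowest at 24 h. The log2 change was 6.23 (SE 0.69, adjusted p = 1.6e-05, edgeR). The level was 8.39 ± 1.77 CPM after 2 h, 3.09 ± 3.24 CPM after 6 h, 51.3 ± 20.4 CPM after 12 h and 730 ± 318 CPM after 48 h (SD, n = 3 each). Per length it was the higher of both named rises at 24 h, at 220 ± 19.0 FPKM, against 64.5 ± 12.2 FPKM for TRINITY_DN16846_c1_g1_i10_7.

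TRINITY_DN6050_c0_g1_i1_1, of 1747 nucleotides, fell the most among the 2075 falls chosen in the same way, with 24 h and 0 h exchanged. It stood at 1.62, 1.70 and 1.78 CPM at 24 h, against 61.5, 38.9 and 57.1 CPM at 0 h. The 24 h libraries were close to each other and far below 0 h, where replicate 2 was the lowest. The log2 change was -4.94 (SE 0.25, adjusted p = 7.9e-08, edgeR). Its level was 18.2 ± 0.617 CPM after 2 h, 6.53 ± 1.13 CPM after 6 h, 2.30 ± 0.432 CPM after 12 h and 2.05 ± 0.404 CPM after 48 h. No called fall met the rule for a feature switched off from 10 CPM, so the next largest fall of this kind was taken.

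That was TRINITY_DN13284_c0_g1_i1_3, of 4940 nucleotides. It stood at 8.70, 3.10 and 4.89 CPM at 24 h, against 172, 36.7 and 259 CPM at 0 h. The groups did not overlap, but the 0 h libraries spread widely, with replicate 2 the lowest. The log2 change was -4.81 (SE 0.84, adjusted p = 0.00051, edgeR). It was -5.26 without 0 h replicate 2, -4.23 without 0 h replicate 3 and -3.96 with limma on log2(FPKM + 1). The feature stood at 23.9 ± 25.6 CPM after 2 h, 5.13 ± 1.19 CPM after 6 h, 3.68 ± 1.41 CPM after 12 h and 6.54 ± 3.55 CPM after 48 h (SD, n = 3 each). The assembly may hold near-identical copies of any of these features, between which estimated counts can be split, and this could not be checked without their sequences.

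**Figure D5:**
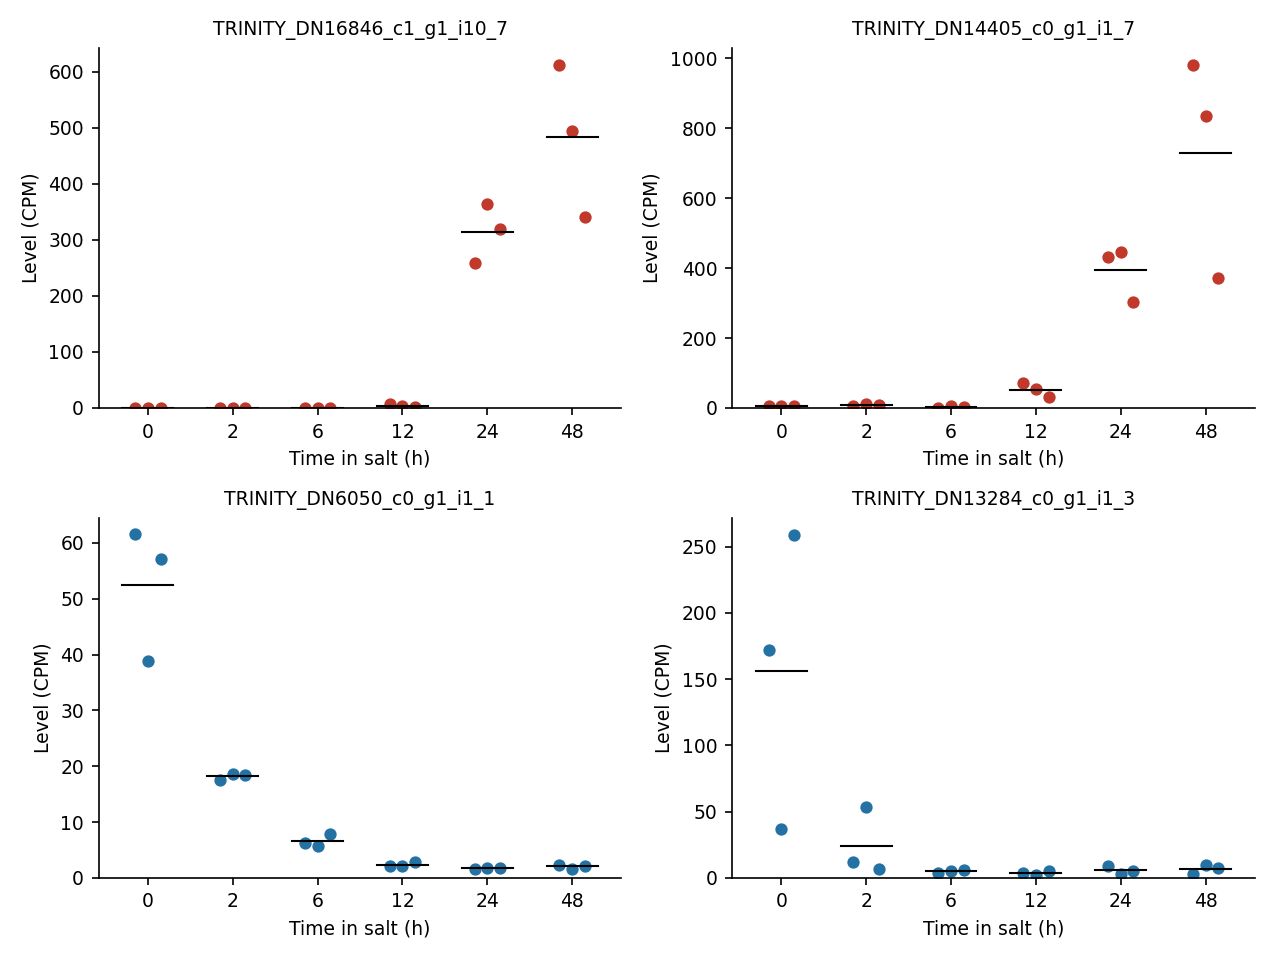
Levels of the 4 named features in all 18 libraries, in CPM on a linear axis, with time in salt in hours on the x axis. Each point is 1 library and each line the mean of 3. Both rises (red) are far higher at 24 h and 48 h than at 0 h, with means of 314 and 394 CPM at 24 h. Both falls (blue) are at 1.70 and 5.56 CPM on average at 24 h, against 52.5 and 156 CPM at 0 h.

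The direction of change followed the final digit of the feature ID, a pattern looked at after values were seen. Every ID ends in a digit from 1 to 9. Among features ending in 1, 155 rose and 1892 fell, and 7.57% of calls were rises. Rises made up 14.2% of calls for digit 3, 24.0% for digit 9 and 33.3% for digit 2. They made up 60.3% for digit 8, 76.6% for digit 4, 87.0% for digit 5, 92.6% for digit 6 and 93.2% for digit 7. With library totals alone digit 8 flipped to 384 rises and 586 falls, and the other 8 digits kept their direction. Without 24 h replicate 3 and 0 h replicate 2 each digit kept its direction, from 10.3% rises for digit 1 to 92.3% for digit 7.

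The digits also differed in the time at which their features were highest. Among features with a mean of at least 1 CPM, those ending in 1 were highest at 0 h in 49.6% of cases, and those ending in 3 in 40.8%. Features ending in 6 were highest at 24 h in 34.0% of cases, and those ending in 7 were highest at 48 h in 58.6%. For digit 2 the most frequent time was 6 h (40.3%), and for digit 9 it was 2 h (31.5%). For digit 4 it was 12 h (30.8%), and for digit 8 it was 48 h (33.3%). Digit 5 was split between 24 h (23.9%) and 48 h (23.7%). Of the 301 features switched on, 131 ended in 6, 76 in 7, 65 in 5 and 0 in 1, 3 or 9. Of the 17 switched off, 10 ended in 1. Of all 53545 features in the tables, 5623 ended in 6, 6074 in 7 and 4334 in 5. Those ending in 1, 3 and 9 numbered 6578, 7609 and 7701. Both named rises end in 7, and the named falls end in 1 and 3. What the digit stands for is not given in the sources used here. If it marks separate assemblies, 1 transcript of the plant could stand in the tables as several features with different digits, and a rise or a switched feature would then be a change of 1 assembled copy. This could not be checked without sequences. The digit's part in the numbers of rises, falls and switched features, and in how counts spread over features, was not tested.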

How the data were processed

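Leaf RNA was sequenced in 18 libraries, 3 at each of 6 times, and grouped by sample title. Estimated counts that the authors deposited were rounded, since 89.6% of values were not whole. The authors also deposited FPKM for the same features. Per the file headers and IDs, features are Trinity transcripts; aligner and counter were not given in the sources used here. Count over FPKM gave lengths, whole within 0.1 nucleotides for 99.99% of features. The library totals that FPKM implies were 86.0% to 87.9% of the summed counts, for a reason not given. The deposited counts may thus have been adjusted, for example for feature length, which no source used here states. No per-sample column was left unused (0). The annotation columns, and so any gene list, were not used.

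Features were filtered with filterByExpr, scaled by TMM and fitted in 1 model of 6 groups over all 18 libraries with edgeR 4.0.16 (R 4.3.3). Calls needed an adjusted p under 0.05 and a log2 change of at least 1. The common dispersion was 0.24. The SE was the log2 change over the square root of F. The script was tested on simulated data, with 44026 features tested. It recovered 12.1% of simulated log2 changes of 1.5 in size, 23.1% of those of 2 and 45.2% of those of 3, with 1 false call. Far fewer features were changed there than were called here, so these shares may not hold for the real data. A feature without a call may still have changed. Within the 24 h group and within the 0 h group no library repeated another: pairs had a chi-square of at least 35.2 times its degrees of freedom. Other pairs of libraries were not compared in this way. Log2 CPM used a prior count of 2, and the fit kept edgeR's default. Tables used Python 3.11.15, pandas 2.3.3 and scipy 1.17.1.

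Alternatives were DESeq2 1.42.0, limma 3.58.1 on log2 FPKM with a pseudocount of 1 or 0.1, other scalings, filters and thresholds, a replicate block, and libraries left out. Leaving out 0 h replicate 2 with 24 h replicate 3, FPKM classes and the ID digits were added after values were seen. Members, lists and rules were chosen with earlier results of these data known.

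In each direction 2 features were named. The first was the most abundant called feature with at most 3 counts over the lower group and 10 CPM or more throughout the higher group. The second had the largest log2 change among calls with 1 CPM or more throughout the lower group, 10 CPM or more throughout the higher group and no overlap. Where the first kind was empty, the next of the second kind was taken. Poisson intervals and the floor of 3 counts cover counting error only.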

Additional observations from a re-analysis of the deposited data

How the results depend on the processing

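Called features numbered 12302, of which 6692 rose and 5610 fell. A minimum of 10 CPM in 3 libraries kept 17495 features and called 6320 (3064 rises, 3256 falls). With features of at least 1000 nucleotides only there were 7802 (3807 rises, 3995 falls). A log2 change of at least 2 left 6920 (4081 rises, 2839 falls), and a test against a log2 change of 1 left 5831 (3493 rises, 2338 falls). Fewer features or a stricter rule lower these totals by construction, and can move the balance of rises and falls too. Rises were 48.5% of calls with the minimum of 10 CPM and 48.8% with features of at least 1000 nucleotides, against 54.4% in the main fit. In the main fit 1335 features under 500 nucleotides rose and 633 fell, and 1571 of 500 to 1000 nucleotides rose and 1153 fell. Under 1 CPM 1498 rose and 812 fell. Leaving such features out lowers the share of rises by construction. Any other cause of that turn was not tested. With limma on log2(FPKM + 0.1), 8803 features fell; the cause was not tested. The DESeq2 test called 14505, and 8952 were called when the model held just the 6 libraries. Leaving out 1 library gave 9412 to 13310 calls, with 5129 to 7489 rises and 4191 to 5954 falls.

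Same-numbered libraries of 24 h and 0 h did not deviate together (r of -0.033, -0.001 and -0.075), so the numbers were not taken as pairs. With the replicate block 11630 features were called, 6396 of them rises and 5234 falls.

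Features switched on numbered 301, but 151 with 0 counts allowed over the silent group, 569 with 10, 588 with 0.5 CPM asked of every library and 9 with 10 CPM. Features switched off numbered 17, and 7, 106, 96 and 0 by the same rules. Leaving out libraries can only keep or raise these numbers: leaving out 1 gave 341 to 540 on and 30 to 149 off, and leaving out 0 h replicate 2 with 24 h replicate 3 gave 745 and 297. The mean number of features detected at 24 h minus 0 h was 0.67 with 1 count, -1691 with 10 counts, -1908 with 1 CPM and -230 after thinning libraries to the smallest total; the cause was not tested and the groups overlapped in each. Each named feature kept its direction and call in 12 alternatives. The named features were chosen as extreme calls from the same libraries, so this could hardly have come out otherwise. Counts summed over the ID up to its isoform number were not run, because features that share it did not vary together (median correlation 0.0781 over 15823 pairs, against 0.0921 for random pairs). Among the classes of CPM, log2 changes were least precise under 1 CPM, where their median SE was 1.07.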
